A study of Homo sapiens with 4 samples.

Results

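The deposited data held 141 regions of the human genome (build hg19, GRCh37) in which H3K4me3 was reduced in cells treated with 1 μM Tat-SID, out of 2207 regions in the 3 lists analysed here. The members are all regions of the list called at this lower dose against untreated cells, and no region was left out. H3K4me3 had been profiled by native ChIP-Seq in MDA-MB-231, an established cell line derived from human breast cancer of the triple-negative type. There was 1 library each of untreated cells, cells treated with 1 μM Tat-SID, cells treated with 2.5 μM Tat-SID and input DNA. Chromatin was digested with micrococcal nuclease and mononucleosome DNA was recovered with an antibody to H3K4me3, except in the input library. Peptide treatment lasted 3 days. All cells belonged to the same line, no allele was altered, and the control cells received no peptide, so the decoy sequence and its Tat carrier cannot be told apart in these libraries. Each list gives only the position of a region, with no read number, fold change or FDR of its own. The size of the reduction at a gene, the depth of the libraries and the regions just inside or outside the threshold are therefore not known here, and with 1 library per condition no difference between conditions was tested. The regions were selected on the authors' comparison of H3K4me3 reads between the treated and the untreated library, so their reduction is not a finding here. In bulk chromatin, fewer cells carrying the mark and less of the mark per cell cannot be told apart.

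Trimethylation of lysine 4 on histone H3 sits on the nucleosomes around the start sites of active genes, and it spreads into the gene body in domains of unequal width, so that its width differs between promoters that are equally marked at the start itself. It is written by the SET1 and MLL methyltransferases and removed by demethylases of the KDM5 family. SIN3A and SIN3B are scaffolds without enzymatic activity that bring histone deacetylases and demethylases to chromatin through their paired amphipathic helices. Tat-SID carries the SIN3 interaction domain of the repressor MAD behind the cell-penetrating Tat sequence, and it is a decoy for proteins that dock on the second of these helices, among them the PHD finger protein PF1.

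The promoters of 8 genes are shown because the results below turn on them. SMURF2, NR2F2 and DCBLD2 had the longest regions with a single protein-coding start, and the other 5 belong to the growth factor and integrin lists described below. They are a selection, and DUSP4 and the AP-1 gene FOSL1, which had longer regions than these 5, are not shown. Each sequence is the 200 bases directly upstream of the gene start in GRCh37, read 5′ to 3′ on the gene's strand. The gene start is the outermost annotated one, and the canonical transcript starts over 1 kb farther downstream in NR2F2 (4.76 kb), ETV1 (1.76 kb) and SPRY4 (1.43 kb). Capitals mark matches, on either strand, to the letters of 7 motifs. These are TATAAA for the core promoter element of that name, CCAAT for the box bound by NF-Y, GGGCGG for the GC box bound by SP1, TGANTCA for the AP-1 site, TGACGTCA for the cyclic AMP response element (CRE), CCGGAAG for the ETS site and CACGTG for the E-box. Overlapping matches run together.
SMURF2 (chr17:62658426-62658625, minus strand): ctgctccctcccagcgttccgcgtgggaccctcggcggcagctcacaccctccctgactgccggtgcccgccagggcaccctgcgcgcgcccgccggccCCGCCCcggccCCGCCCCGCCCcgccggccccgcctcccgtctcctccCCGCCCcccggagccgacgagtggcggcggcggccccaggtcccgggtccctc
NR2F2 (chr15:96868967-96869166, plus strand): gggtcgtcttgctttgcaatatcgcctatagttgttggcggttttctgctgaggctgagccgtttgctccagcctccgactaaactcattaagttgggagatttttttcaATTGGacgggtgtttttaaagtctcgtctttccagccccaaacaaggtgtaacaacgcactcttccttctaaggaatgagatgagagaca
DCBLD2 (chr3:98620540-98620739, minus strand): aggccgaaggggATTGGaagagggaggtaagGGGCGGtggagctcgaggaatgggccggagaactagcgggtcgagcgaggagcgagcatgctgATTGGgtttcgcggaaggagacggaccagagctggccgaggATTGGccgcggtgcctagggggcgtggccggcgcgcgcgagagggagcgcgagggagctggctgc
ERRFI1 (chr1:8086370-8086569, minus strand): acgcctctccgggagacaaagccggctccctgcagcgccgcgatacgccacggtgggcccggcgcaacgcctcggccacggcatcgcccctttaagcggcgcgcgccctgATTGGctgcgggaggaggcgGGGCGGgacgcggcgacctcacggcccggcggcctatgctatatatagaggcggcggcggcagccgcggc
ETV1 (chr7:14031051-14031250, minus strand): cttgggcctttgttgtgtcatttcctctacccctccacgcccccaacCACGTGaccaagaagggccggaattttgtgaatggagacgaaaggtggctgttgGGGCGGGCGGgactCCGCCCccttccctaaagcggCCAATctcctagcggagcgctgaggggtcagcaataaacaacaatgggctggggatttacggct
DUSP6 (chr12:89746279-89746478, minus strand): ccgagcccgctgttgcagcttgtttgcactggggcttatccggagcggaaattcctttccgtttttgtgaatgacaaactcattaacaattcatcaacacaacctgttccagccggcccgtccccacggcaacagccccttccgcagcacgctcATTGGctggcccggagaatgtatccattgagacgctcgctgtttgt
SPRY4 (chr5:141706021-141706220, minus strand): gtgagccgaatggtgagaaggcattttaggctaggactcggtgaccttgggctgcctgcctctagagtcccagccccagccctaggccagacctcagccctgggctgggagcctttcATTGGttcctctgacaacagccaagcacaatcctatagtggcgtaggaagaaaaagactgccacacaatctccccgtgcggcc
ITGA2 (chr5:52284970-52285169, plus strand): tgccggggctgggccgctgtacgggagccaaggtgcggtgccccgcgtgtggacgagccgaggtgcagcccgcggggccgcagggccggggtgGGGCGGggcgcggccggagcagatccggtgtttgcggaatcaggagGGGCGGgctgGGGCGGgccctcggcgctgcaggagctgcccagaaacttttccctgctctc

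The 8 windows differed in composition. SMURF2 was the richest in G and C at 83.5%, with 28 CpG dinucleotides and 4 GC boxes, and NR2F2 was the poorest at 46.0%, with 8 CpG dinucleotides and a single CCAAT box. Among the 98 protein-coding starts that lay inside a region, 63.3% had a GC box in these 200 bases, against 46.5% of the 20098 protein-coding promoters of the autosomes and chromosome X and 54.9% of those reached at 2.5 μM only. A CCAAT box was found in 33.7% of the 98 and in 29.2% of all promoters. A TATA box was as frequent in the 98 (8.16%) as in all promoters (8.13%), and AP-1 sites (4.08% against 4.39%), CRE (2.04% against 1.79%), E-boxes (5.10% against 6.26%) and ETS sites (5.10% against 8.16%) were found in few of them. Such matches of letters describe these windows only, and the differences in share were not tested.

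In the gene models used here, 12 microRNA genes lay in a region or within a non-coding host transcript starting in one. Any microRNA gene absent from these models was not counted. Their mature sequences are shown because MIR21, the MIR222HG cluster and the MIR100HG cluster are tied to 3 of the regions described below. The sequences are from RefSeq (GRCh38.p14 table), which held all 12 genes, and the seed, bases 2 to 8, is in capitals. The 2 pairs that share a seed come first.
hsa-miR-221-3p: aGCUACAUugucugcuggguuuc
hsa-miR-222-3p: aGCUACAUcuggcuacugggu
hsa-miR-181a-5p: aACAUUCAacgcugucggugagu
hsa-miR-181b-5p: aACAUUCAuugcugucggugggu
hsa-miR-21-5p: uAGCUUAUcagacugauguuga
hsa-miR-100-5p: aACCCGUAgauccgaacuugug
hsa-miR-125b-5p: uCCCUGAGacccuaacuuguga
hsa-let-7a-5p: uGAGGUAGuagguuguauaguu
hsa-miR-16-5p: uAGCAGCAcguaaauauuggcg
hsa-miR-3142: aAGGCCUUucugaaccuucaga
hsa-miR-1469: cUCGGCGCggggcgcgggcucc
hsa-miR-3175: cGGGGAGAgaacgcagugacgu

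Together the 141 regions covered 1307059 bp. Their lengths ran from 4149 to 26999 bp around a median of 8599 bp, with quartiles of 6899 and 10449 bp. A protein-coding gene started within 3 kb of 82 of them (58.2%, exact Clopper-Pearson 95% confidence interval 49.6% to 66.4%, which covers counting over regions only). Another 22 lay only at the start of a non-coding gene (15.6%, interval 10.0% to 22.7%). At 25 no gene began but another annotated transcript did, and these are called internal promoters here (17.7%, interval 11.8% to 25.1%). The remaining 12 were distal, with no annotated transcript start within 3 kb (8.51%, interval 4.48% to 14.4%). Among the 1920 regions listed only at 2.5 μM the shares in the same order were 73.9%, 9.84%, 8.59% and 7.71%, and the difference was not tested. The annotation takes as gene start the outermost start of any transcript, so that some regions classed as internal or non-coding held the main promoter of a protein-coding gene. With the start of the Ensembl canonical transcript, the 1 transcript chosen to represent each gene, 98 of the 141 regions lay within 3 kb of a protein-coding start. These were 80 of the 82, 7 of the 22 and 11 of the 25.

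The ranges of length overlapped between the classes, with 4149 to 18249 bp at protein-coding starts, 5899 to 18699 bp at non-coding starts, 4399 to 26999 bp at internal promoters and 4299 to 15299 bp at distal sites. Median length was 8499 bp at protein-coding starts, 9374 bp at non-coding starts, 8549 bp at internal promoters and 9174 bp at distal sites. The longest region was an internal promoter of the microRNA host gene MIR100HG (chr11:122026151-122053149, 26999 bp, 27349 bp at 2.5 μM). It was followed by regions at ARHGAP29 (18699 bp), MIR222HG (18499 bp), LINC-PINT (18449 bp) and FOSL1 (18249 bp), and then by SMURF2 (17199 bp), NR2F2 (16899 bp), RUNX1 (15349 bp), a distal site on chromosome 3 (15299 bp) and DCBLD2 (14599 bp). The shortest were at EPC1 (4149 bp), a distal site on chromosome X (4299 bp), MCTP1 (4399 bp), a distal site on chromosome 12 (4749 bp), and ATF7IP and RSBN1 (4799 bp each). At 2.5 μM the regions without a counterpart at 1 μM had a median length of 4849 bp. Length and the call come from the same reads, so this difference was not tested. Of the 156 regions at 2.5 μM that were at least as long as the median 1 μM region, 70 had a counterpart at 1 μM.

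**Figure D1:**
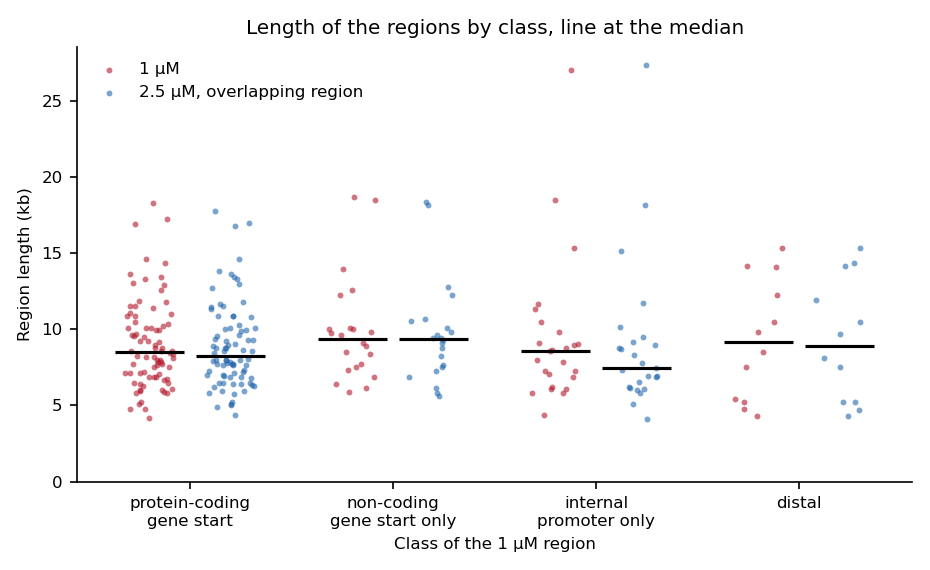
Length in kb of each of the 141 regions at 1 μM and of the region or regions overlapping it at 2.5 μM, by class, with a black line at the median. Each point is 1 region, and the ranges of the classes overlap in part, with the highest point at 26999 bp (MIR100HG).

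In base composition the classes formed an order. Median GC content was 42.7% in regions at protein-coding starts, 40.9% at non-coding starts, 39.4% at internal promoters and 34.6% at distal sites. The 141 regions together had a median of 41.9%, against 45.4% in those listed only at 2.5 μM, where distal sites had 35.6%. Regions listed only at 2.5 μM were also shorter, and the part of length in this difference was not tested.

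The starts within 3 kb belonged to 187 annotated genes, which is 0.290% of 64486 genes (4.84% at 2.5 μM). They comprised 100 protein-coding genes, or 0.496% of 20176 (9.50% at 2.5 μM), 75 lncRNA, 4 microRNA, 3 small nucleolar RNA, 2 small nuclear RNA genes and 3 of other types. Of the 100 protein-coding starts 98 lay inside the region. The outermost start of FUT8, the enzyme of core fucosylation, lay 191 bp outside, and its canonical start lay inside. The start of EVI2B lay 2078 bp outside the region that covers EVI2A within an intron of NF1. There were 70 regions with a single protein-coding start, 6 with 2 and 6 with 3.

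Around the start the regions were lopsided. In the 69 regions that held exactly 1 protein-coding start, a median of 1879 bp lay upstream (quartiles 1223 and 2755 bp) and a median of 6214 bp downstream (5427 and 8529 bp), so that 78.6% of the region lay downstream of the start (quartiles 69.6% and 85.5%). The part downstream was the longer in 68 of the 69. The exception was ARID2, a subunit of the PBAF remodelling complex, with 5038 bp upstream and 3760 bp downstream, where the start of the lncRNA LINC00938 lay upstream in the same region. Counted from the canonical start, the part upstream was also the longer at FAT1 (6089 and 4109 bp), SAP30 (4054 and 3444 bp) and C6orf62 (3767 and 3081 bp). At the other extreme from ARID2, and counted from the gene start, PLOD2, a collagen lysyl hydroxylase, had 387 bp upstream and 7811 bp downstream. EHF, an epithelial ETS factor, had 489 and 9859 bp. The canonical start of PLOD2 lay 2.54 kb farther into the gene, with 2928 bp upstream and 5270 bp downstream. A position 4000 bp downstream was covered by 94.2% of the 69 regions, and a position 6000 bp downstream by 55.1%. In the 1028 regions of the same kind listed only at 2.5 μM these shares were 36.0% and 7.88%, with a median of 3476 bp downstream. A position 2000 bp upstream was covered by 43.5% and 21.1%. The 1028 regions were lopsided as well, with a median of 72.2% downstream and the longer part downstream in 958 of them. Regions listed only at 2.5 μM were shorter, and the part of length in these shares was not tested. CpG promoters, with GC content over 50% and an observed to expected CpG ratio over 0.6 within 1 kb of the start, made up 72.5% of the 69 and 71.4% of the 1028.

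**Figure D2:**
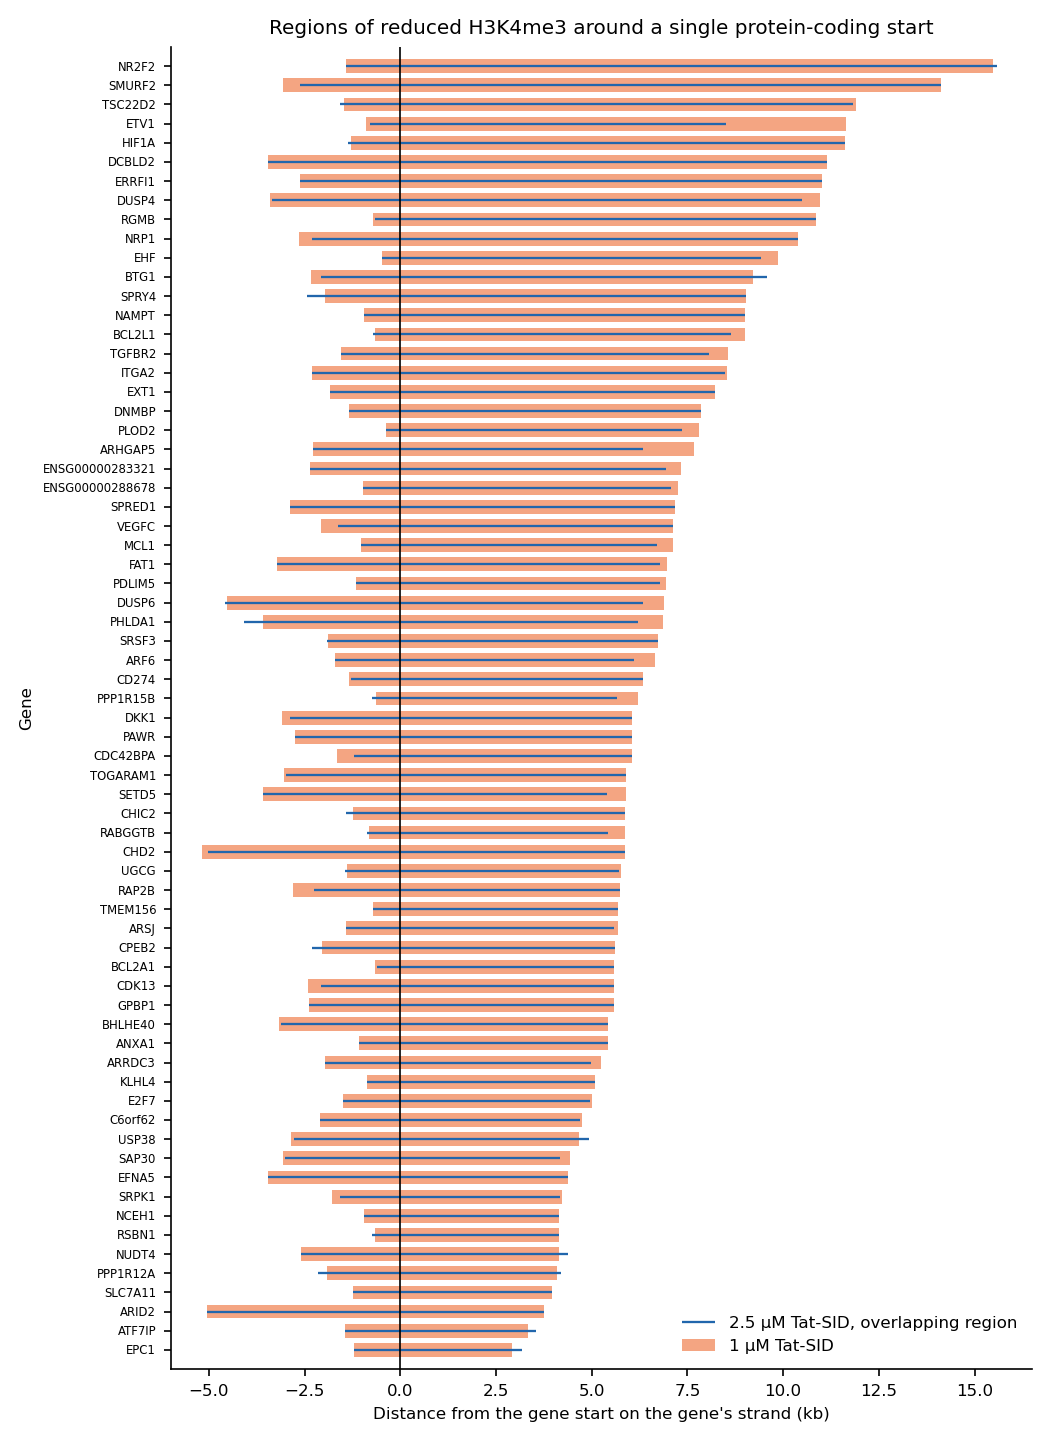
Extent of 68 of the 69 regions with exactly 1 protein-coding start, in kb from the gene start on the gene's strand, as bars for 1 μM Tat-SID with a line for the overlapping region at 2.5 μM, sorted by the extent downstream. Bars reach from 2925 bp (EPC1) to 15482 bp (NR2F2) downstream, and at ETV1 and ARHGAP5 the line ends short of the bar. The gene models ENSG00000283321 and ENSG00000288678 share their regions with the canonical starts of AHR and PTP4A2.

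**Figure D3:**
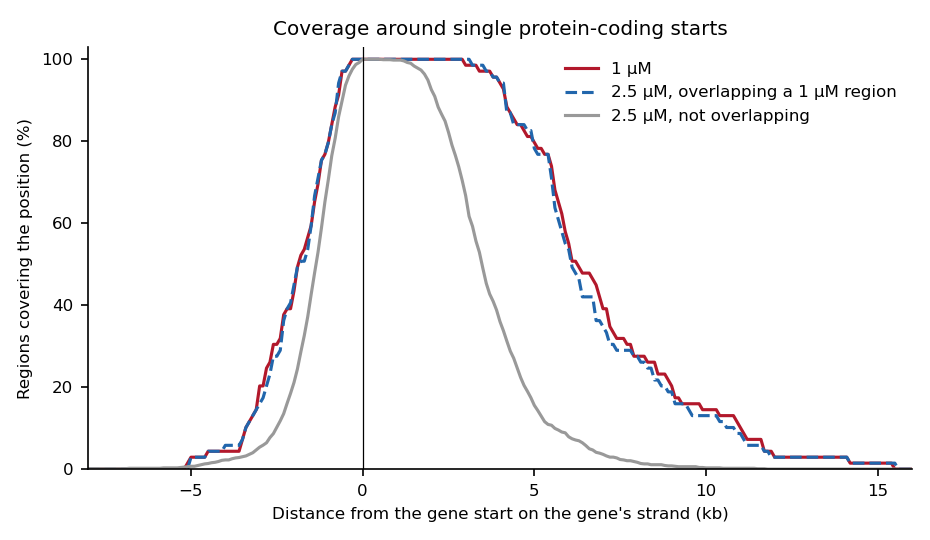
Share of regions in percent that cover each position around a single protein-coding start, for the 69 regions at 1 μM, their counterparts at 2.5 μM and the 1028 other regions at 2.5 μM. The curves at either dose for the 1 μM regions lie close together, and the curve of the other regions falls to 36.0% at 4 kb downstream, where the 1 μM curve is at 94.2%.

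These extents left most of the covered sequence intronic. For 111 multi-exon genes whose canonical start was covered, exons of that transcript made up a median of 4.87% of the region (quartiles 2.65% and 9.56%), and in 65 of the 111 the region ended before exon 2. The region held the entire gene for 11 genes, among them COMMD3, DKK1, CCDC85B, FOSL1, PHLDA1, DUSP6, BTG1, ARF6, NR2F2 and EVI2A.

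Feedback inhibitors and targets of receptor tyrosine kinase and RAS-MAPK signalling held more of the listed genes than any other group. Of 33 annotated genes on the list of RAS-MAPK drivers and feedback inhibitors, 7 had a start within 3 kb of a region (21.2%, against 0.496% of all protein-coding genes), and 13 did at 2.5 μM (39.4%, against 9.50%). They were DUSP4, DUSP6, SPRY4, SPRED1, ETV1, PHLDA1 and MCL1, and none of them encodes a RAS or RAF protein. The list had been set with earlier results of these data known, so its count is a description. DUSP4 and DUSP6 encode phosphatases that remove the activating phosphates from MAP kinases. DUSP4 lay in a region of 14349 bp (chr8:29197251-29211599, 13849 bp at 2.5 μM) that reached 10950 bp into the gene. The region at DUSP6 (chr12:89739401-89750799) was 11399 bp long, with 10899 bp at 2.5 μM, and covered all 3 exons. SPRY4 and SPRED1 are inhibitors that act between the receptor and RAF. Their regions were 10999 bp (chr5:141697001-141707999, 11449 bp at 2.5 μM) and 10049 bp (chr15:38542151-38552199, the same length at 2.5 μM). ERRFI1, which binds and inhibits the EGF receptor, had a region of 13649 bp at either dose (chr1:8075351-8088999) with 11018 bp downstream of the start, up to exon 3 of 4. It was the only one of 16 genes on the EGFR family list at 1 μM.

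Transcription factors downstream of the same cascade were also covered. ETV1, an ETS factor, had a region of 12549 bp at 1 μM (chr7:14019401-14031949) and of 9299 bp at 2.5 μM, and at 1 μM it extended to exon 5 of 14. FOSL1, the AP-1 subunit FRA-1, lay in a region of 18249 bp (chr11:65654151-65672399, 17749 bp at 2.5 μM) together with the starts of CCDC85B and FIBP, and all 4 of its exons were covered. It was the only one of 18 AP-1 genes at 1 μM (5.56%, against 0.496% of all protein-coding genes). At 2.5 μM there were 5 (27.8%, against 9.50%). PHLDA1, a pleckstrin homology domain protein induced by growth factors, lay in a region of 10449 bp (10299 bp at 2.5 μM). An NF1 transcript starts within 3 kb of the region at EVI2A (chr17:29643201-29649049, 5849 bp), which lies inside NF1, and the NF1 gene start itself was not near a region.

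Ligands, receptors and their regulators came next. TGFBR2, the type II TGF-β receptor, had 10099 bp (chr3:30646551-30656649, 9599 bp at 2.5 μM), and SMURF2, a ubiquitin ligase of SMAD signalling, had 17199 bp (chr17:62644301-62661499, 16749 bp at 2.5 μM). They were 2 of 33 genes of the TGF-β list (6.06%, against 0.496% of all protein-coding genes). At 2.5 μM there were 8 (24.2%, against 9.50%). NRP1, a co-receptor for VEGF and class 3 semaphorins, had 13049 bp and VEGFC, a lymphangiogenic ligand, had 9199 bp. DCBLD2, a neuropilin-like receptor, had 14599 bp at either dose (chr3:98609401-98623999) with 11138 bp inside the gene. RGMB, a co-receptor of bone morphogenetic proteins, had 11549 bp. The secreted Wnt inhibitor DKK1 had 9149 bp, the ephrin ligand EFNA5 had 7849 bp and the protocadherin FAT1 had 10199 bp. Among genes of immune recognition, CD274, which encodes PD-L1, had 7699 bp (chr9:5449151-5456849, 7649 bp at 2.5 μM) and TLR4 had 5799 bp (5949 bp at 2.5 μM). Of 39 cytokine, chemokine and NF-κB genes, 0 had a start near a region at 1 μM and 10 at 2.5 μM. With 0.496% of all protein-coding genes near a region at 1 μM, a count of 0 in a list of this size does not set it apart.

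Adhesion and cytoskeletal genes gave ITGA2, the collagen-binding integrin subunit, with 10849 bp (chr5:52282851-52293699, 10799 bp at 2.5 μM), as the only one of 26 integrin genes by its gene start, and ITGB1 by an internal start. PDLIM5 and ANXA1 were 2 of 65 genes of actin and focal adhesions by their gene starts (18 at 2.5 μM), with 8099 and 6499 bp, and MSN was reached by an internal start. The share of all protein-coding genes near a region was 0.496% at 1 μM and 9.50% at 2.5 μM. The GTPase-activating protein gene ARHGAP5 had 9949 bp, the CDC42 effector kinase CDC42BPA had 7699 bp, the myosin phosphatase subunit PPP1R12A had 5999 bp, the focal adhesion protein LPXN shared 11849 bp with ZFP91, the adherens junction protein VEZT shared 9549 bp with FGD6, and the small GTPases ARF6 and RAP2B had 8349 and 8549 bp. EXT1, a heparan sulfate polymerase, had 10049 bp at either dose. Of 58 genes for extracellular matrix proteins and their modifiers 0 were near a region at 1 μM, which likewise does not set the list apart, and 14 at 2.5 μM. PLOD2, which modifies collagen, is not on that list.

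Regulators of cell death and growth arrest were put together after their names were seen in the list, so they have no denominator. MCL1, BCL2L1 and BCL2A1, which encode anti-apoptotic members of the BCL2 family, lay in regions of 8149, 9649 and 6249 bp (7749, 9349 and 6199 bp at 2.5 μM), and BCL2 and BCL2L2, of the same family, had no start near a region at 1 μM. APAF1, the apoptosome scaffold, shared a bidirectional promoter with IKBIP in a region of 6049 bp that was longer at 2.5 μM (7649 bp), and PAWR had 8799 bp at either dose. BTG1, an antiproliferative gene, had 11549 bp, and PPP1R15B, a regulatory subunit of the eIF2α phosphatase, had 6849 bp. The cell cycle repressor E2F7 (6499 bp) was the only gene start on the list of 26 G1 cyclins, CDKs and their inhibitors, with CDKN2C by an internal start. By gene starts this was 3.85% of that list, against 0.496% of all protein-coding genes.

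Genes of transcription and chromatin were spread over many families. NR2F2, an orphan nuclear receptor, had 16899 bp (chr15:96867751-96884649, 16999 bp at 2.5 μM), of which 15482 bp lay downstream of the start, and the region held all 3 exons and MIR1469. HIF1A, the hypoxia-inducible factor, had 12899 bp over its start (chr14:62160951-62173849, 12999 bp at 2.5 μM). BHLHE40, a repressor of the circadian clock, had 8599 bp and EHF had 10349 bp. AHR, the aryl hydrocarbon receptor, has an outermost annotated start 382.3 kb upstream, but its canonical start lay inside a region of 9699 bp (chr7:17336551-17346249) with 7973 bp downstream. Among chromatin genes, SAP30 (7499 bp) was the only one of 30 genes of the SIN3, HDAC and PF1 complexes (3.33%, against 0.496% of all protein-coding genes). At 2.5 μM there were 8 (26.7%, against 9.50%). The Polycomb gene BMI1 shared 13299 bp with COMMD3. CBX3, which encodes HP1γ, and the splicing factor gene HNRNPA2B1 start head to head in a region of 11799 bp at either dose. The SET domain gene SETD5 had 9499 bp, ARID2 8799 bp, the transcriptional kinase CDK13 7999 bp, ATF7IP 4799 bp and EPC1, a NuA4 subunit, 4149 bp. EPC1 was reached by its outermost start, with no canonical start within 3 kb of the region. CHD2, a chromatin remodeller, was covered by 2 regions. The first (chr15:93424251-93435299, 11049 bp) held its outermost start, and the second (chr15:93442201-93451999, 9799 bp) began 6.90 kb further on and held its canonical start.

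RNA-binding proteins gave SRSF3 (8599 bp, 8649 bp at 2.5 μM) and HNRNPA2B1, 2 of 41 splicing factor genes at 1 μM (4.88%, against 0.496% of all protein-coding genes). At 2.5 μM 24 of the 41 were reached (58.5%, against 9.50%). The SR protein kinase SRPK1 had 5999 bp, CPEB2, which binds polyadenylation elements, had 7649 bp, and FUBP1 shared 6849 bp with DNAJB4 and GIPC2. The canonical start of FUBP1 was covered, whereas DNAJB4 and GIPC2 were reached by their outermost starts and had no canonical start within 3 kb. Metabolic genes included SLC7A11, the cystine transporter (5199 bp), NAMPT, of NAD synthesis (9949 bp), UGCG, of glucosylceramide synthesis (7149 bp), and NCEH1, a cholesterol ester hydrolase (5099 bp), each with the same length at 2.5 μM. Ubiquitin ligases and related genes were FBXL5, which shared 7049 bp with FAM200B, the deubiquitinase USP38 (7549 bp) and the arrestin-like ARRDC3 (7199 bp). FBXL5 likewise had no canonical start within 3 kb, and that of FAM200B was covered. The other protein-coding starts with regions of 4799 to 13399 bp were those of RABGGTB, RSBN1, CEP170 with SDCCAG8, TSC22D2, TMEM156, CHIC2, ARSJ, GPBP1, C6orf62, DNMBP, NUDT4, POC1B with GALNT4, TOGARAM1 and KLHL4, together with the phosphatase gene PTP4A2, whose canonical start was covered. TSC22D2 had the longest of these, with 11914 bp downstream of the start.

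Over all 24 lists, 20 of 752 annotated protein-coding genes had a start near a region at 1 μM (2.66%). At 2.5 μM 216 did (28.7%). Of all protein-coding genes, 0.496% did at 1 μM and 9.50% at 2.5 μM. The lists had been set with earlier results of these data known, so these shares are a description. There were 11 lists with a member at 1 μM. Lists with members at 2.5 μM only, counted by gene starts, were the YAP, TAZ and TEAD pathway (8 of 22), EMT regulators (7 of 32), KLF factors (4 of 17), translation factors (10 of 26), cytosolic ribosomal proteins (24 of 86), replication-dependent histones (30 of 69), snoRNA host genes (7 of 29), glycolysis (3 of 20), H3K4 methyltransferase complexes (3 of 21), the MYC, MAX and MXD network (1 of 13), matrix and cytokine genes. On the EMT list, ETS1 and RUNX1 were reached at 1 μM by internal starts. The list of H3K4 methyltransferase complexes also held the demethylase genes KDM1A and KDM1B. Its 3 members at 2.5 μM were KMT2C, KDM6A and KDM1A. With 0.496% of all protein-coding genes near a region at 1 μM, a count of 0 does not set lists of these sizes apart. BMI1 was the only gene start among 19 annotated breast cancer stem cell markers (4 at 2.5 μM), where ITGB1 was reached by an internal start. HIF1A was the only gene start among 31 chaperone, ubiquitin and stress genes (12 at 2.5 μM). Luminal epithelial markers, which mark another cell state than that of this basal-like line, had 0 of 25 genes at 1 μM and 1 at 2.5 μM. The latter is 4%, against 9.50% of all protein-coding genes, and the count of 0 likewise does not set the list apart. Whether these genes carried the mark in untreated cells is not known here. Both doses were called against the same untreated library, the 2.5 μM list is larger, and no list was tested against another.

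**Figure D4:**
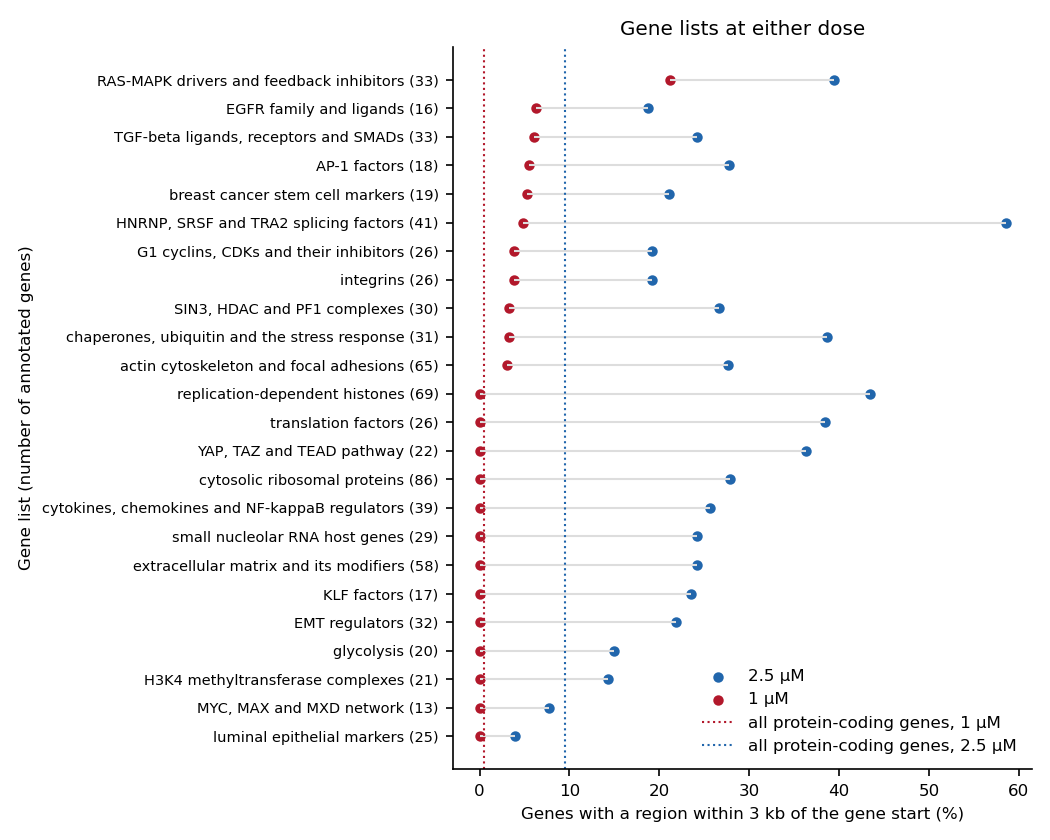
Share in percent of the annotated genes of each of 24 lists with a region within 3 kb of the gene start, at 1 μM and at 2.5 μM, with dotted lines at the share of all protein-coding genes (0.496% and 9.50%). The RAS-MAPK list stands at 21.2% at 1 μM and every other list at or below 6.25%, and the splicing factor list has the largest share at 2.5 μM.

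Internal promoters lay in 22 protein-coding and 3 non-coding genes. In 11 of the 22 the region held the canonical start, and the gene start lay farther upstream in another transcript model. RTN4, an endoplasmic reticulum shaping protein, was covered 59008 bp beyond its gene start in a region of 8799 bp. The others of this kind were TFPI, the tissue factor pathway inhibitor (11299 bp, 7799 bp at 2.5 μM), STK17B (6849 bp), ANKRD28 (8949 bp), the RNA-binding RBMS3 (9049 bp), the anthrax toxin receptor ANTXR2 (7999 bp), PLAC8 (7249 bp), the repulsive ligand SEMA3A (9099 bp), ZNF217 (9799 bp), BACH1 (7249 bp) and MSN, which encodes moesin (10449 bp). In the other 11 only alternative transcripts began in the region. RUNX1 was covered at an internal promoter in 15349 bp (chr21:36250501-36265849, 15099 bp at 2.5 μM), where 4 of 18 transcripts start, and exons 3 to 5 of 9 lay inside. FOXP1 was covered 516630 bp inside the gene in 11649 bp (chr3:71104851-71116499), with 8 of 71 transcripts starting there. HDAC9 had 7849 bp and the JmjC domain gene JMJD1C had 5849 bp. NEDD4, a ubiquitin ligase (6199 bp), NET1, a guanine nucleotide exchange factor (6099 bp), GCNT2 (8549 bp, 6949 bp at 2.5 μM), NAV3 (8649 bp, 5999 bp at 2.5 μM), TNPO1 (6099 bp, 5099 bp at 2.5 μM), MCTP1 (4399 bp) and MIER1 (7049 bp) completed the set. MIER1 was closest to its gene start, at 3473 bp, and the RUNX1 region was farthest, at 1111116 bp. These distances are from the outermost annotated start. The canonical start of RUNX1, at position 36421599 of chromosome 21, lies much closer to its region.

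The 22 regions at non-coding starts only held a protein-coding transcript start in 13 cases. In 7 of these it was the canonical start, each time with the start of a non-coding gene beside it. ITGB1, the β1 integrin subunit that pairs with ITGA2, had 31 of its 36 transcripts starting in a region of 13949 bp (chr10:33238851-33252799, 10699 bp at 2.5 μM), together with the divergent ITGB1-DT. KMT2E, an MLL family gene, started with KMT2E-AS1 in 9649 bp. It was the only one of 21 genes on the H3K4 methyltransferase list with any start at 1 μM. NR3C1, the glucocorticoid receptor, had 12 of 17 transcripts starting in 12249 bp (chr5:142774001-142786249, the same at 2.5 μM). CDKN2C, which encodes the CDK inhibitor p18, had 6899 bp at either dose, ERBIN had 8399 bp and ARHGAP29 had 18699 bp with ARHGAP29-AS1. CHD2 was the seventh. In the other 6, alternative transcripts of ETS1 (8899 bp), DST (7299 bp), PDE4DIP (9999 bp), DNMBP (8499 bp), VMP1 (7499 bp) and HIF1A began in the region. The second HIF1A region (chr14:62210001-62220099, 10099 bp, 9799 bp at 2.5 μM) covered exons 13 to 15 of 15 at the end of the gene and the start of the antisense lncRNA HIF1A-AS3, 36.2 kb beyond the region at the HIF1A start.

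The remaining 9 non-coding regions had no protein-coding transcript start. MALAT1, an abundant nuclear lncRNA, lay whole inside a region of 12549 bp (chr11:65263751-65276299, 12749 bp at 2.5 μM), together with its antisense partner TALAM1. MIR222HG had 18499 bp (chrX:45614951-45633449, 18149 bp at 2.5 μM), of which 14726 bp lay downstream of the start. The others were MIR181A1HG (9749 bp), MANCR (9099 bp), LINC00973 (5899 bp), DLEU1 with DLEU2 (9999 bp), MIR3142HG (7699 bp), LINC02742 (6149 bp) and a region of 6399 bp beside LINC00397. In strand-blind ChIP data a divergent or antisense pair shares its region, and the part of each partner cannot be told apart.

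MicroRNAs were tied to regions in different ways. MIR21, MIR1469 and MIR3175, whose mature forms are printed above, lay inside a region. The MIR21 region (chr17:57914101-57921599, 7499 bp, 8249 bp at 2.5 μM) covered exons 11 and 12, the last ones of VMP1, with MIR21 itself 4526 bp from the upstream border. MIR222 and MIR221, which share the seed GCUACAU, lie in the MIR222HG transcript, 8.42 and 9.26 kb beyond the region. MIR181A1 and MIR181B1, with the shared seed ACAUUCA, lie 69.8 and 69.9 kb beyond the MIR181A1HG region. MIR100, MIRLET7A2 and MIR125B1 lie in order downstream of the MIR100HG region, the longest of all, and MIRLET7A2 was 8.85 kb and MIR125B1 55.6 kb from its border. MIR16-1 lies 26.6 kb from the DLEU1 and DLEU2 region, within DLEU2. Counting protein-coding hosts as well, 19 annotated microRNA genes lay in a region or in a transcript starting in one. The level of a microRNA was not measured in these data.

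The 12 distal regions measured 4299 to 15299 bp (median 9174 bp), and each also had a counterpart at 2.5 μM. Only 1 lay in a protein-coding gene, in an intron of the metalloprotease gene ADAMTS12 (chr5:33851251-33859749, 8499 bp, 8099 bp at 2.5 μM), 32.4 kb from its start. Another overlapped an unnamed lncRNA, 127.8 kb from the start of VEGFC (chr4:177841851-177847099, 5249 bp at either dose). On chromosome X a region of 4299 bp (chrX:45659501-45663799) lay 29.8 kb from the start of MIR222HG. On chromosome 3 a region of 15299 bp (chr3:104151601-104166899) lay 918.9 kb from the nearest protein-coding gene, ALCAM, and another of 14049 bp (chr3:84284201-84298249) lay 709.9 kb from CADM2. On chromosome 4 there were regions of 7499 bp (chr4:35021851-35029349) and 14149 bp (chr4:35099651-35113799), 70.3 kb apart and 1217 and 1132 kb from ARAP2. Regions of 5449 bp on chromosome 1 and 4749 bp on chromosome 12 lay 91.2 kb from DPYD and 57.4 kb from ATXN7L3B. A region of 12249 bp lay on chromosome 14. The last 2, on chromosome 9 (chr9:66691151-66700999 and chr9:69873751-69884249, 9849 and 10499 bp), were in repeated sequence. There 93.5% and 92.4% of all 32-base words occurred more than once in the genome, with a median of 3 and 2 copies, whereas in the other 139 regions the share never passed 50%. The alignment by the authors allowed a read to match up to 20 places and kept 1 of them, and its part in these 2 calls was not tested.

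Set side by side at the doses, the borders of a region were much the same. The values share the untreated library, so they do not stand as separate evidence. Of the 141 regions 139 had 1 counterpart at 2.5 μM and 2 had 2, at ARHGAP29 and at the chromosome 3 site near CADM2. Among the 139, 34 had both borders identical, 77 had 1 identical, 73 were longer at 1 μM, 29 were longer at 2.5 μM and 37 had equal length. Median length was 8549 bp at 1 μM and 8299 bp at 2.5 μM. Of 278 borders, 258 lay within 500 bp of each other and 8 were apart by 1000 bp or more. These 8 borders belonged to 8 regions. In 7 of them at least 1000 bp were listed only at 1 μM, at TFPI (3500 bp), ETV1 (3250 bp), ITGB1 (3250 bp), NAV3 (2650 bp), GCNT2 (1600 bp), ARHGAP5 (1350 bp) and TNPO1 (1000 bp). At ETV1 most of the additional sequence lay at the downstream end, within the gene, and at ITGB1 it lay upstream of the start, on the side of ITGB1-DT. The opposite was found at IKBIP and APAF1, where 1600 bp on the APAF1 side were listed only at 2.5 μM. The islands were built from windows of 50 bp joined over gaps of up to 400 bp, and all starts lay on this grid. Ends lay 1 bp below it when read as BED intervals, so every length given here may be 1 bp short.

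**Figure D5:**
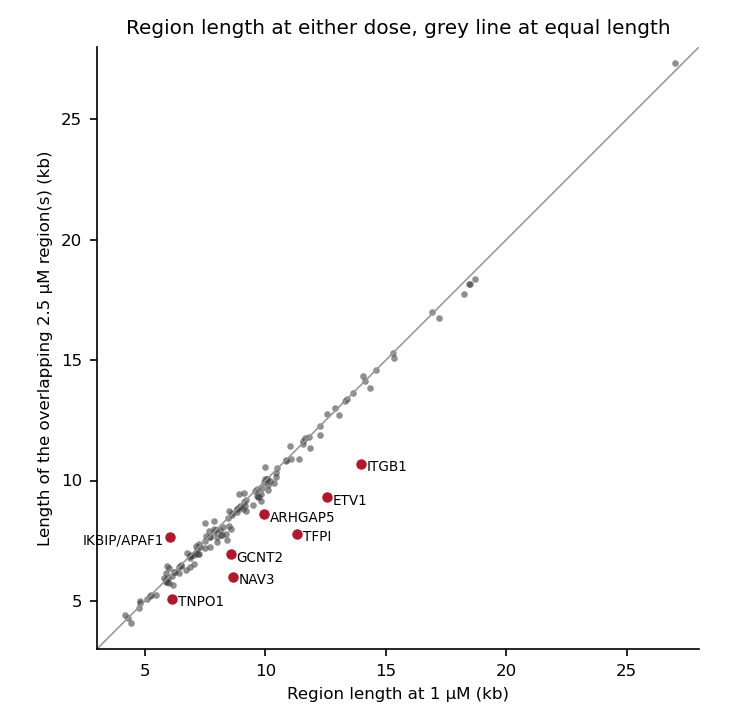
Length in kb of each of the 141 regions at 1 μM against the summed length of its counterparts at 2.5 μM, with a grey line at equal length. Most points lie on or near the line. Of the 139 regions with 1 counterpart, 37 had equal length, 73 were longer at 1 μM and 29 were longer at 2.5 μM. The 8 named regions, in red, have at least 1000 bp listed at 1 of the doses only.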

How the data were processed

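Native H3K4me3 ChIP libraries of MDA-MB-231 cells, 1 per condition, were sequenced as single-end reads. The authors aligned the reads to hg19 with Bowtie (version 1.0.0), after quality checks with FastQC (version 0.10.0), and compared each treated library with the untreated one with SICER-df (windows of 50 bp, gaps of up to 400 bp). Input DNA served them as background, and MACS2 gave tracks of enrichment over input, which were not used here. The deposited lists carry an FDR of 1e-15 in their names. The results text of the study gives the same limit for promoters with reduced H3K4me3, and its methods text gives a less strict one for this comparison. The lists hold only region positions, with no count, score or signal, and depth is unknown here. The handling of duplicate reads is not given in the sources used here.

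Positions were read as BED intervals and printed from 1. Gene models were those of GENCODE (release 44, lifted to GRCh37). Regions were classed by annotated starts within 3 kb. Words of 32 bases were counted in the whole genome. The self-written code was tested on simulated regions and ran in Python 3.11.15 with pandas 2.3.3, scipy 1.17.1 and pysam 0.24.0. Because there is 1 library per condition, values are counts, lengths and positions, and no test between conditions was made. The regions, gene lists and named genes were chosen with earlier results of these data known. Full values go to the 10 longest and 5 shortest regions, list members, internal and distal regions and those with 1000 bp or more listed at 1 μM only, and other genes are named with lengths, apart from a few items that are not reported here. The single list of increased regions, at 2.5 μM, was counted only, and no list of increased regions at 1 μM was used here. Alternatives were the window (10 kb, or the start base itself), protein-coding genes only, basic or all transcripts, merging within 3000 bp, a minimum length of 1000 bp, the overlap, and canonical starts. Canonical starts for counts of regions and genes, and leaving out repeated sequence, were added after the data were seen.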

Additional observations from a re-analysis of the deposited data

How the results depend on the processing

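The 141 regions stayed 141 after merging of neighbours within 3000 bp and with a minimum length of 1000 bp. The count of regions at a gene start (104) lay between 82, with protein-coding genes only, and 113, with a window of 10 kb, and was 100 where the start base itself had to be covered and 98 with canonical protein-coding starts. Internal promoters (25) ranged from 19 to 35. The 12 distal regions became 24 when only protein-coding genes and their transcripts were counted, by construction, because regions at non-coding starts alone then count as distal, and ranged from 9 to 13 under the other annotation settings. Without the 2 regions in repeated sequence there were 10. Genes with a start within 3 kb (187) ranged from 176 to 232, and protein-coding genes (100) from 98 to 136, with 116 by canonical starts. The median share of a region downstream of the start was 78.6%, 76.9% from the canonical start and 76.3% with every start counted. A counterpart at 2.5 μM was found for 140 of the 141 regions when 50% of the 1 μM region, or of both, had to be shared. No paired analysis was possible because no group had a replicate. Without read numbers, neither the size of a reduction nor its reproducibility is known here.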

Other observations

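Some regions of the 1 μM list were neighbours. Of 122 adjacent pairs on a chromosome, 10 were within 250 kb of each other. The closest were the 2 regions of CHD2 (6.90 kb apart), MIR222HG and the distal site on chromosome X (26.1 kb), and the start and the end of HIF1A (36.2 kb). They were followed by the gene start and an internal start of DNMBP (69.2 kb), the distal pair on chromosome 4 (70.3 kb), DCBLD2 and LINC00973 (75.1 kb), MANCR and an unnamed lncRNA (81.9 kb), VEGFC and a distal site (125.7 kb), DUSP6 and POC1B (162.6 kb), and PAWR and PPP1R12A (237.7 kb).

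Divergent starts, on the opposite strand and up to 1000 bp upstream or 200 bp downstream of the gene start, were counted for the 100 protein-coding genes, and 69 had none. The partner was a lncRNA for 17 genes, against 14.7% at 2.5 μM and 7.94% of all protein-coding genes, and another protein-coding gene for 14, against 21.0% and 9.51%. These shares were not tested.

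Chromosome 4 had 16, chromosome 1 had 15, and chromosomes 3 and 12 had 14 each, while chromosomes 16, 18, 19 and 22 had 0, against 23, 34, 31 and 11 at 2.5 μM. This was not tested either.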
